A study of Homo sapiens and Homo sapiens
Mus musculus and Mus musculus with 200 samples.

Results

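The WNT loci described here are the regions around 10 genes of the WNT pathway in human cranial neural crest cells (hCNCC): the ligands WNT5A and WNT5B, the receptors FZD2, FZD7 and ROR2, the secreted inhibitors SFRP1, DKK1 and DKK2, the nuclear factor LEF1 and the pathway component AXIN2. An open-chromatin (ATAC) peak belonged to a locus when it lay within 100 kb of any GENCODE transcript start of that gene. By this rule 372 of the 213151 ATAC peaks with H3K27ac counts were members, 58 at ROR2, 48 at FZD7, 47 at WNT5B, 45 at LEF1, 40 at SFRP1, 33 at DKK2, 31 at FZD2, 29 at WNT5A, 29 at AXIN2 and 12 at DKK1. The listed gene was also the nearest gene for 180 of the 372, so a peak's place in a locus says nothing of which gene it acts on. Introns held 202 of them, intergenic sequence 125, start sites 36, exons 7 and UTRs 2.

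WNT proteins are secreted ligands that bind Frizzled receptors and co-receptors. WNT5A and WNT5B are best known for signalling without beta-catenin, through Frizzled receptors and the receptor tyrosine kinase ROR2, while other WNTs stabilise beta-catenin, which acts with TCF/LEF factors such as LEF1 and induces AXIN2, a negative feedback gene. SFRP1 binds WNT ligands outside the cell, and DKK1 and DKK2 bind the LRP co-receptors. WNT signals induce the neural crest and later pattern facial and limb mesenchyme, where TWIST1, a basic helix-loop-helix factor that binds E-box sequences, and homeodomain factors of the ALX, PRRX and MSX families are expressed.

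The study measured binding of TWIST1 and of V5-tagged homeodomain factors, and the active-chromatin mark H3K27ac, by chromatin immunoprecipitation and sequencing in hCNCC made from the H9 embryonic stem cell line. Unedited cells (WT) were compared with TWIST1FV, ALX1FV, PRRX1FV and MSX1FNV, lines whose named factor carries a tag for degradation by dTAGV-1 (500 nM), and with ALX1FV ALX4-, which has the ALX1FV tag and lacks ALX4. All lines, WT included, received dTAGV-1 for 0, 3 or 24 h. Both TWIST1FV replicates come from a single clone, whereas the replicates of ALX1FV, ALX1FV ALX4-, PRRX1FV and MSX1FNV are 2 clones each. Other lists came from HEK293 kidney cells 24 h after plasmid transfection, from RS4;11 lymphoblasts, and from mouse face and limb at E10.5 (embryonic days). No label says that replicates of TWIST1FV or WT came from separate differentiations, so p-values measure the spread between these samples, which may be technical.

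The 36 H3K27ac libraries, 2 per line and time, held 5137169 to 9173063 counts over the ATAC peaks. Start sites of all 11 neural crest markers examined (TWIST1, TFAP2A, TFAP2B, NR2F1, NR2F2, SOX9, ALX1, ALX4, PRRX1, MSX1 and PDGFRA) held an ATAC peak, with 20.2 to 200.1 CPM per kb in WT at 0 h, where CPM is a peak's count scaled to the library's total. Of 5 pluripotency markers, POU5F1 and NANOG had no peak at the start, SOX2 had 0.495 CPM per kb, DPPA4 13.2 and LIN28A 106. The 6 neural markers reached at most 11.8, the 4 endoderm and epithelium markers at most 1.11, and neither blood marker had a peak.

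TWIST1 sites were defined as peaks of the WT list of replicate 1 at 0 h that overlapped a peak of replicate 2, which gave 127 sites at the WNT loci out of 42318. ROR2 had 25 of them, AXIN2 17, FZD7 15, FZD2 13, LEF1 13, WNT5A 12, SFRP1 11, WNT5B 10, DKK2 9 and DKK1 2. E-boxes (CANNTG, where N is any base) were searched on both strands in 3 forms only. One was CAGATG, which on the opposite strand is read as CATCTG. Another was CAGCTG, which reads the same on both strands. The last was CATATG, which also reads the same on both strands. At least 1 of these lay within 100 bases of the summit in 86 sites (67.7%), against 67.5% of all TWIST1 sites. A homeodomain hexamer, either TAATTA or the form ending in a different base, which was TAATTG and is read on the opposite strand as CAATTA, was found in 23 (18.1%, against 25.3% of all). A composite of E-box, 4 bases and homeodomain hexamer on either strand was found in 2 sites (1.57%), against 1148 of all sites (2.71%). These matches describe letters in the window and do not show which protein contacts them.

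The 2 composites are shown first because they hold both motifs, each in capitals, at an intergenic DKK2 site (chr4:107205209-107205268, plus strand) and at AXIN2 (chr17:65553861-65553920, minus strand), all in hg38 and 5′ to 3′. The next 3 sequences, with the E-box in capitals and on the plus strand, are from peaks whose H3K27ac results are given below. They were chosen after the values were seen: the distal DKK2 peak (chr4:107320359-107320408), the ROR2 upstream peak (chr9:91992728-91992777) and the internal start of WNT5A (chr3:55481583-55481632). The DKK1 sequence (chr10:52394410-52394459) is from the stronger of the locus's 2 sites, and its capitals mark the E-box nearest the summit, while a further searched E-box in it, cagctg, is left in lower case.
DKK2 composite: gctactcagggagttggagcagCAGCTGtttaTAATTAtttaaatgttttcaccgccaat
AXIN2 composite: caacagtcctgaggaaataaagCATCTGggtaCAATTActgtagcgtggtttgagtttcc
DKK2 distal: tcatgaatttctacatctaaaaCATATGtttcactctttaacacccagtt
ROR2 upstream: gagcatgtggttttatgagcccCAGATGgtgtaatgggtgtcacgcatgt
WNT5A internal start: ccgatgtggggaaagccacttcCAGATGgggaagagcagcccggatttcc
DKK1 downstream: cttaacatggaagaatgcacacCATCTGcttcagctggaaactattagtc

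Part of this binding is also seen at identical sequence in the mouse. Of the 127 human sites, 23 held a run of at least 24 bases that occurs unchanged near the orthologous mouse gene (GRCm39). Of those runs, 18 lay in a mouse Twist1 peak of at least 1 of the 5 tissues, 14 in all 5. Runs were accepted on either strand and at any place in the mouse locus. The search was made at these loci alone, so no share over all TWIST1 sites is available and the counts are not particular to the loci. The longest was 80 bases at the strongest FZD2 site (chr17:44608451-44608530), found on mouse chromosome 11 at 102515198 to 102515277, minus strand. At WNT5A, runs of 46 bases at the internal start (chr3:55481520-55481565) and of 30 bases in the neighbouring gene ERC2 (chr3:55549429-55549458) were found on mouse chromosome 14, minus strand, at 28233149 and 28161328. The strongest LEF1 site shared 29 bases (chr4:108074710-108074738) with mouse chromosome 3 and held none of the searched E-boxes within 100 bases of its summit. Its shared run does hold CAGGTG, an E-box form that was not searched. All 4 runs lay in Twist1 peaks of frontonasal prominence (FNP), maxillary (Mx) and mandibular (Md) tissue, forelimb (FL) and hindlimb (HL). They are printed on the human plus strand with searched E-boxes in capitals.
FZD2 shared run: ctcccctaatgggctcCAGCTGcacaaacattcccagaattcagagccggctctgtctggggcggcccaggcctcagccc
WNT5A shared run at the internal start: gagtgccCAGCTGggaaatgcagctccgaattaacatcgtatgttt
WNT5A shared run in ERC2: atgcctgagacaatatggaaacCAGATGcg
LEF1 shared run: cctataaatagaaacaggtgtctaaatca

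In the mouse lists, 1 per tissue, the WNT loci held 115 Twist1 peaks in FNP, 62 in Mx, 80 in Md, 127 in FL and 105 in HL. Wnt5a had 12 to 20 peaks per tissue and Ror2 9 to 23, while Wnt5b had 4 to 10. Lef1 had 4 to 8 peaks in the 3 face tissues and 12 or 15 in the limbs, although list lengths differ (17938 peaks in Mx, 46082 in FL) and no tissue has a replicate. Dkk1 was not analysed here.

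TWIST1 binding at the WNT loci was largely gone after 3 h of dTAGV-1 in TWIST1FV and stayed in WT. WT lists at 3 h still held 111 and 112 of the 127 sites (90.9% and 89.2% of all sites were held), and TWIST1FV lists at 0 h held 89 and 77 (67.2% and 54.4% of all). At 3 h the TWIST1FV lists held 5 and 5 (1.94% and 1.73% of all 42318 sites were held). Counted as peaks of the same replicate's own 0 h list, TWIST1FV kept 5 of 104 and 5 of 80 locus peaks, 5.53% ± 1.02 (SD, n = 2), and WT kept 131 of 169 and 121 of 145, 80.5% ± 4.20 (SD, n = 2). The groups did not overlap, with a difference of -75.0 percentage points, and the exact two-sided permutation test gave p = 0.333, the smallest that 2 against 2 allows.

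The sites that stayed were among the strongest at 0 h. Both 3 h lists held 4 of them, at AXIN2 (chr17:65530106-65533066), FZD2 (chr17:44607844-44609173) and ROR2 (chr9:91857268-91858295 and chr9:92007661-92008757). A further ROR2 site (chr9:91824263-91825603) was in the list of replicate 1 alone and a WNT5A site (chr3:55482689-55483505) in that of replicate 2 alone. Their -log10 q in WT replicate 1, the authors' own value per peak, ran from 230.5 to 826, and each ranked among the first 5 TWIST1 sites of its locus. The values at 3 h were lower, for example 391 and 335 at 0 h against 34.4 and 18.4 at 3 h in TWIST1FV at the FZD2 site. Conversely, the 34 sites missing from both TWIST1FV lists at 0 h had a median -log10 q of 9.85 in WT, against 80.8 for the 73 sites in both. The strongest ROR2 site (chr9:91991822-91993299), with the highest value of any site at these loci (964), was in neither 3 h list.

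**Figure D1:**
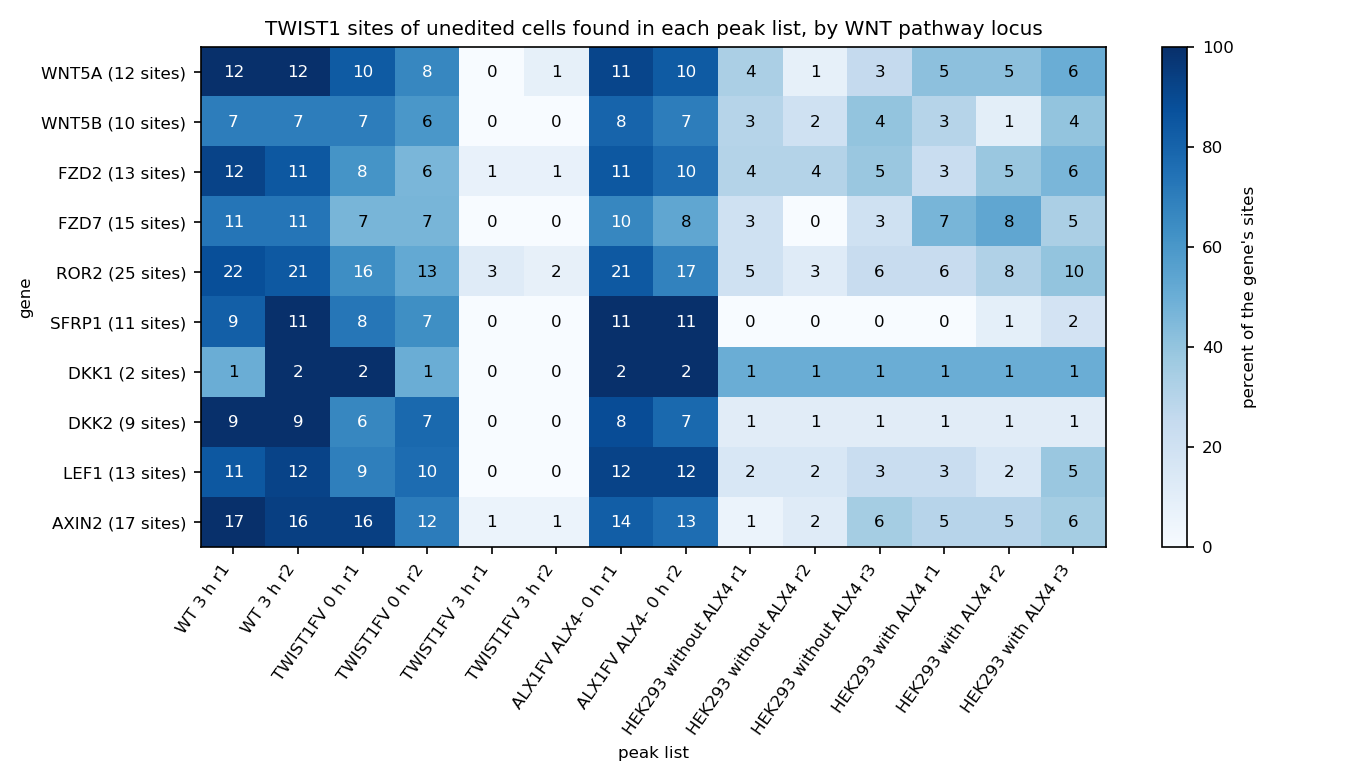
Number of the 127 TWIST1 sites of WT that each peak list held (cell text) and its share of the gene's sites (colour, percent), by gene (rows) and list (columns, r1 to r3 are replicates). The 2 TWIST1FV lists at 3 h hold 5 sites each, while lists of ALX1FV ALX4- hold 108 and 97.

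TWIST1 lists of ALX1FV ALX4- at 0 h held 108 and 97 of the 127 sites (85.0% and 76.4%, against 76.9% and 71.4% of all 42318). Both lists held 94 of the sites, and 16 were in neither. Their own locus peaks numbered 157 and 136, against 169 and 145 in WT, means of 146.5 ± 14.8 and 157 ± 17.0 (SD, n = 2 each) that differed by less than the spread between replicates (exact two-sided permutation test, p = 0.667). Without ALX1FV ALX4- replicate 2 this difference was 0, and without WT replicate 1 it was 1.5 peaks. All 11 SFRP1 sites and both DKK1 sites were in both lists of ALX1FV ALX4-. The 16 missing sites had a median -log10 q of 11.6 in WT, against 54.0 for the 94. ALX1FV had no TWIST1 list, so the comparison was with WT, which differs in the ALX1FV tag and in clone as well as in ALX4. The 127 sites were defined in WT, so sites bound only in ALX1FV ALX4- are not among them.

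V5 marks the tagged homeodomain factor in these lines. The V5 lists at 0 h are short (1389 and 376 peaks in ALX1FV, 920 and 1116 in ALX1FV ALX4-), so a site missing from them was not detected at the depth and threshold of the list. Of the 127 TWIST1 sites, ALX1FV lists held 8 and 1 (3.19% and 0.881% of all sites were held) and ALX1FV ALX4- lists 5 and 6 (2.15% and 2.57% of all). In all, 10 sites were in at least 1 list. ROR2 had 5 of these 10, LEF1 had 2, and FZD2, DKK2 and AXIN2 had 1 each. The FZD2 site at chr17:44607844-44609173 had the highest V5 -log10 q, 17.8 in ALX1FV replicate 1 and 36.2 and 21.7 in ALX1FV ALX4-. WNT5A, WNT5B, FZD7, SFRP1 and DKK1 had none. PRRX1FV lists (2 and 1 peaks in all) and MSX1FNV lists (50 and 278 peaks) held no site of the WNT loci, which at such list lengths says little about PRRX1 or MSX1. AP2a, a neural crest factor, was found at 34 sites with each of 2 antibodies (26.8%, against 21.3% and 23.3% of all sites), 28 of them the same.

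In HEK293 cells, V5-TWIST1(WT) expressed alone reached 24, 16 and 32 of the 127 neural crest sites in its 3 replicates, and together with ALX4 it reached 34, 37 and 46. The shares were 18.9% ± 6.30 and 30.7% ± 4.92 (SD, n = 3 each). No replicate with ALX4 fell below one without it. The difference of 11.8 percentage points gave p = 0.1 in the exact two-sided permutation test, the smallest that 3 against 3 allows. Over all 42318 sites the shares were 15.8%, 12.6% and 20.6% without ALX4 and 21.3%, 26.7% and 33.2% with it. FZD7 sites went from 3, 0 and 3 to 7, 8 and 5, and WNT5A sites from 4, 1 and 3 to 5, 5 and 6. SFRP1 sites went from 0 in each replicate to 0, 1 and 2, while DKK2 stayed at 1 in all 6 lists. The pUC19 control list held none of the 127.

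H3K27ac was tested at the locus peaks that passed a filter on low counts, with edgeR's quasi-likelihood test fitted over all ATAC peaks and Benjamini-Hochberg adjustment. A peak is called here when that adjusted p was under 0.05. In TWIST1FV at 3 h, 319 member peaks were tested, of which 1 rose and 21 fell (6.9% called, against 5.29% of all tested peaks). The median log2 fold change was -0.09 over members and 0.02 over all peaks. Without TWIST1FV replicate 1 at 0 h, 13 were called. At 24 h, 13 rose and 53 fell (20.7% called, against 13.8% of all tested peaks), with medians of -0.12 over members and 0.03 over all. With library sizes alone in place of TMM scaling, the split was 21 up and 45 down at 24 h. That scaling moved the median of all peaks by 0.13, and the members' median minus that of all peaks was -0.15 with TMM and -0.16 with library sizes. A bulk library cannot tell fewer cells carrying the mark from less of the mark in each cell.

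Most of the member peaks that fell overlapped a TWIST1 site, 85.7% at 3 h and 92.5% at 24 h. Of all peaks that fell, 94.9% and 92.1% did. A TWIST1 site overlapped 128 of 319 tested members, and 30.3% of all tested peaks. Of 128 tested member peaks overlapping a TWIST1 site, 18 fell and 1 rose at 3 h, and 49 fell and 3 rose at 24 h, with a median log2 fold change of -0.77 at 24 h. Of the 191 without one, 3 fell and none rose at 3 h, while 4 fell and 10 rose at 24 h, with a median of 0.22. Over all tested peaks at 3 h, 13.4% of those overlapping a TWIST1 site fell and 0.658% rose. Of the others, 0.31% fell and 1.16% rose. At 24 h, 28.9% of all those overlapping a TWIST1 site fell and 2.26% rose, with a median of -0.73. Of the others, 1.07% fell and 5.15% rose at 24 h, with a median of 0.23. The members' medians lay near those of all peaks in both classes.

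**Figure D2:**
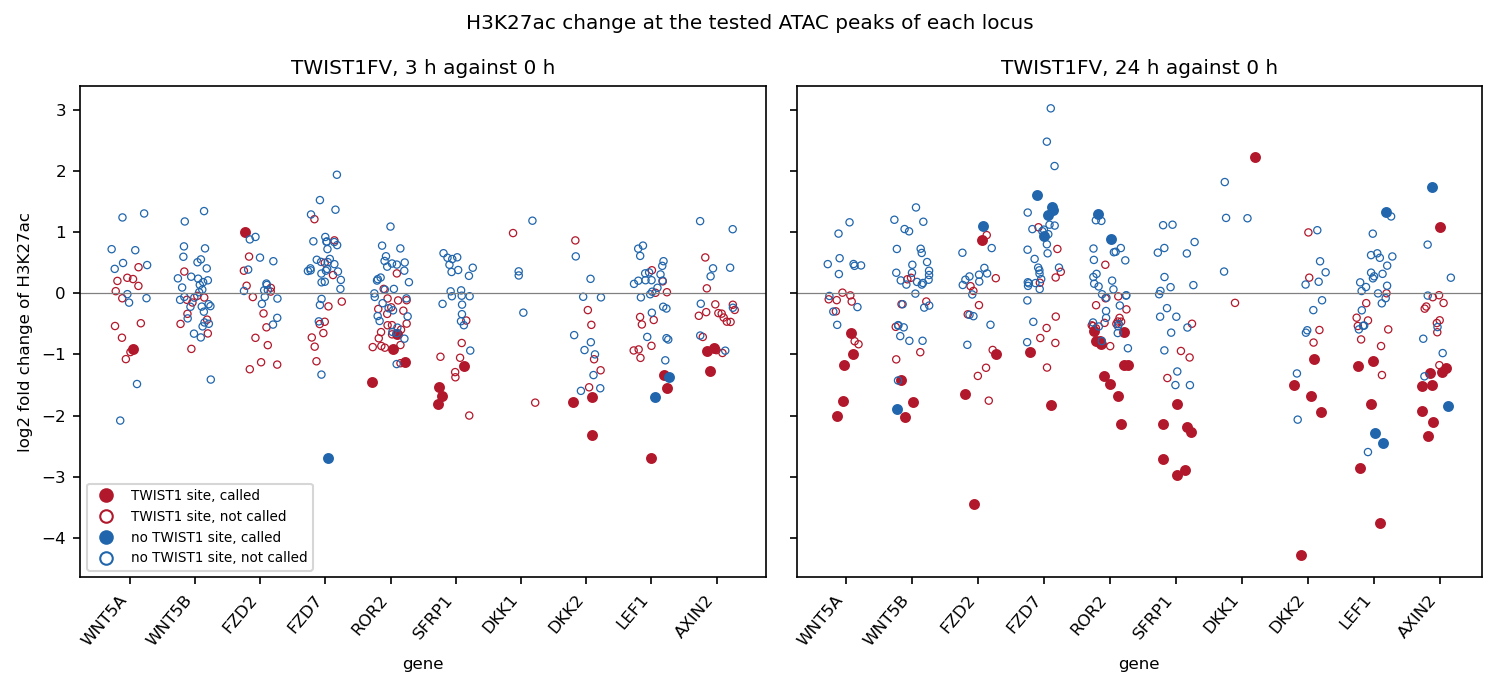
Log2 fold change of H3K27ac in TWIST1FV at 3 h (left) and 24 h (right) against 0 h for each tested member peak (points), by gene. Red marks peaks overlapping a TWIST1 site, blue those without, and filled points were called, 22 at 3 h and 66 at 24 h. DKK2 and LEF1 hold the peaks that fell farthest at 24 h among called points, at -4.28 and -3.76.

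The change in TWIST1FV was then compared with the change in WT through an interaction term fitted over all 36 libraries. At 3 h, 14 of 361 tested members differed, 1 with a higher and 13 with a lower response in TWIST1FV (3.88%, against 2.35% of all tested peaks). At 24 h, 46 differed, 5 higher and 41 lower (12.7%, against 6.07% of all). The counts fell to 8 without TWIST1FV 3 h replicate 2 or WT 0 h replicate 1 and to 7 without WT 3 h replicate 2, and at 24 h to 27 without TWIST1FV 24 h replicate 2 and 28 without WT 0 h replicate 2. Of the 41 lower at 24 h, 36 overlapped a TWIST1 site (87.8%, against 93.1% of all lower peaks), and of the 5 higher ones none did (18.6% of all higher peaks).

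With time alone in the model, no member was called over time in any line but TWIST1FV. In WT 0 of 316 tested members passed at either time (background 0% of all tested peaks). At an unadjusted p under 0.05 there were 7 and 13 at 3 and 24 h. These were 2.22% and 4.11% of members, against 3.42% and 3.58% of all tested peaks. ALX1FV gave 0 of 314 (background 0% at both times). Its unadjusted counts were 7 and 4 (2.23% and 1.27%, against 1.61% and 1.84% of all). ALX1FV ALX4- gave 0 of 313 (background 0% at 3 h and 0.0279% at 24 h). Its unadjusted counts were 7 and 25 (2.24% and 7.99%, against 4.57% and 6.34% of all). PRRX1FV gave 0 of 313 (background 0% and 0.000827%), and MSX1FNV 0 of 296 (background 0.00179% and 0.00448%). Unadjusted counts in PRRX1FV were 10 and 12 (3.19% and 3.83%, against 3.91% and 4.23% of all). In MSX1FNV they were 7 and 12 (2.36% and 4.05%, against 2.85% and 3.57% of all). These zero counts are from edgeR's quasi-likelihood test. DESeq2, also with time alone, called 0 members in each of these lines and times. No term for clone was fitted in these tests, so they did not use the pairing by clone in ALX1FV, ALX1FV ALX4-, PRRX1FV and MSX1FNV. A change seen only within clones could be missed by them. Fits with the replicate number as a block were also run, and their counts for these lines are not given here.

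Among the ligands, WNT5A had 5 of 25 tested peaks that fell at 24 h and none that rose, and WNT5B 4 of 42 and none. Over all 123361 tested peaks, 11706 fell and 5276 rose (13.8% called), the background for counts per gene here and below. The WNT5A start-site peak (chr3:55486808-55487308) carried 38.1 and 49.8 CPM at 0 h, 44.7 and 57.1 at 3 h and 42.8 and 45.5 at 24 h in TWIST1FV, with overlapping values and a log2 fold change of 0.01 ± 0.19 (SE) at 24 h. The internal WNT5A start (chr3:55481355-55481855) carried 51.0 and 52.9 CPM, then 30.0 and 44.5, then 21.8 and 24.2. It fell by 1.17 on the log2 scale at 24 h (edgeR quasi-likelihood, adjusted p = 0.000897). WT libraries held 38.3 to 54.0, and the difference from WT (-1.37) was called by edgeR (adjusted p = 0.00665) but not by DESeq2 (adjusted p = 0.058). The strongest TWIST1 site of the locus, in an intron of ERC2 (chr3:55549150-55549921), carried 20.1 and 17.4 CPM, then 15.8 and 7.0, then 6.06 and 3.17. Its libraries at 24 h lay under both at 0 h, and the change was -2.0 ± 0.39 (SE; edgeR quasi-likelihood, adjusted p = 0.00196). WT had 20.3 to 26.7 CPM there.

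At WNT5B the start site itself (chr12:1628635-1629892), a weakly marked peak that overlaps a TWIST1 site, carried 6.96 and 9.26 CPM at 0 h, 5.40 and 3.29 at 3 h and 2.33 and 1.59 at 24 h in TWIST1FV. It changed by -2.03 ± 0.43 at 24 h (SE; edgeR quasi-likelihood, adjusted p = 0.00334), and WT libraries held 5.76 to 8.29 CPM. The difference from WT was called too (-2.12), but not without TWIST1FV 0 h replicate 2, TWIST1FV 24 h replicate 2 or WT 24 h replicate 2 (edgeR adjusted p up to 0.0726). The locus's strongest TWIST1 site, in a WNT5B intron (chr12:1583376-1583876), had 5.04 and 4.39 CPM at 0 h and 1.40 and 2.12 at 24 h. Its call (edgeR adjusted p = 0.0449) was lost when any 1 of the 4 libraries was left out.

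Receptor loci changed in both directions, as did all tested peaks (5276 rose and 11706 fell of 123361 at 24 h). ROR2, the co-receptor of WNT5A, had 11 of 55 tested peaks that fell and 2 that rose at 24 h. Its most strongly bound TWIST1 site, 41782 bp upstream of the gene (chr9:91992010-91992999), carried 168 and 158 CPM at 0 h, 65.3 and 54.1 at 3 h and 38.8 and 35.4 at 24 h in TWIST1FV. WT had 170 and 183, then 155 and 166, then 168 and 172. The TWIST1FV libraries after treatment lay below every WT library, and the change was -1.46 ± 0.16 at 3 h (SE; edgeR quasi-likelihood, adjusted p = 5.15e-05) and -2.13 ± 0.16 at 24 h (edgeR adjusted p = 2.75e-07). Both calls held with any 1 library left out. An intronic peak without a TWIST1 site (chr9:91887417-91887917), 218 bp from an alternative ROR2 start, rose by 1.30 ± 0.26 at 24 h, from 8.59 and 8.41 CPM to 21.7 and 20.0 (edgeR quasi-likelihood, adjusted p = 0.00235). The ROR2 start site (chr9:91949577-91950866) went from 88.6 and 101 CPM to 75.4 and 81.6, and its change of -0.27 ± 0.15 did not pass.

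FZD7 had 5 peaks that rose and 2 that fell among 44 tested at 24 h. None of the peaks named as rising held a TWIST1 site: one in an intron of KIAA2012 (chr2:202127324-202128248) carried 8.00 and 11.3 CPM at 0 h and 26.1 and 32.8 at 24 h in TWIST1FV, against 8.26 to 9.27 in all WT libraries. It rose by 1.60 ± 0.31 (SE; edgeR quasi-likelihood, adjusted p = 0.00196). The peak in the FZD7 exon (chr2:202035392-202035892) went from 5.63 and 10.7 to 20.1 and 23.5 CPM (1.40 ± 0.32, SE; edgeR adjusted p = 0.0068), a call lost without TWIST1FV 0 h replicate 1 (edgeR adjusted p = 0.104). The strongest TWIST1 site, 76820 bp upstream (chr2:201956103-201957035), went the other way, from 19.6 and 18.0 to 4.66 and 5.95 CPM, by -1.82 ± 0.29 (SE; edgeR adjusted p = 0.000341).

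FZD2 had 2 peaks that rose and 3 that fell among 29. Its strongest TWIST1 site (chr17:44607701-44608692), the one that kept TWIST1 at 3 h, carried 50.1 and 61.0 CPM at 0 h and 57.5 and 29.4 at 24 h, with groups that overlapped and no call. A peak 32179 bp downstream of the start (chr17:44589663-44590163) went from 8.89 and 13.8 to 3.73 and 3.44 CPM (-1.65 ± 0.36, SE; edgeR quasi-likelihood, adjusted p = 0.00459), and without TWIST1FV 0 h replicate 2 it no longer passed (edgeR adjusted p = 0.0889). A peak 9108 bp upstream without a TWIST1 site (chr17:44547544-44548376) went from 9.33 and 16.8 to 25.1 and 30.9 CPM (1.09 ± 0.28, SE; edgeR adjusted p = 0.0133), a call lost without TWIST1FV 0 h replicate 1 or 24 h replicate 2 (edgeR adjusted p up to 0.21). Start sites of FZD2 and FZD7 were not called, with changes of 0.04 ± 0.16 and 0.16 ± 0.16 (SE).

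**Figure D3:**
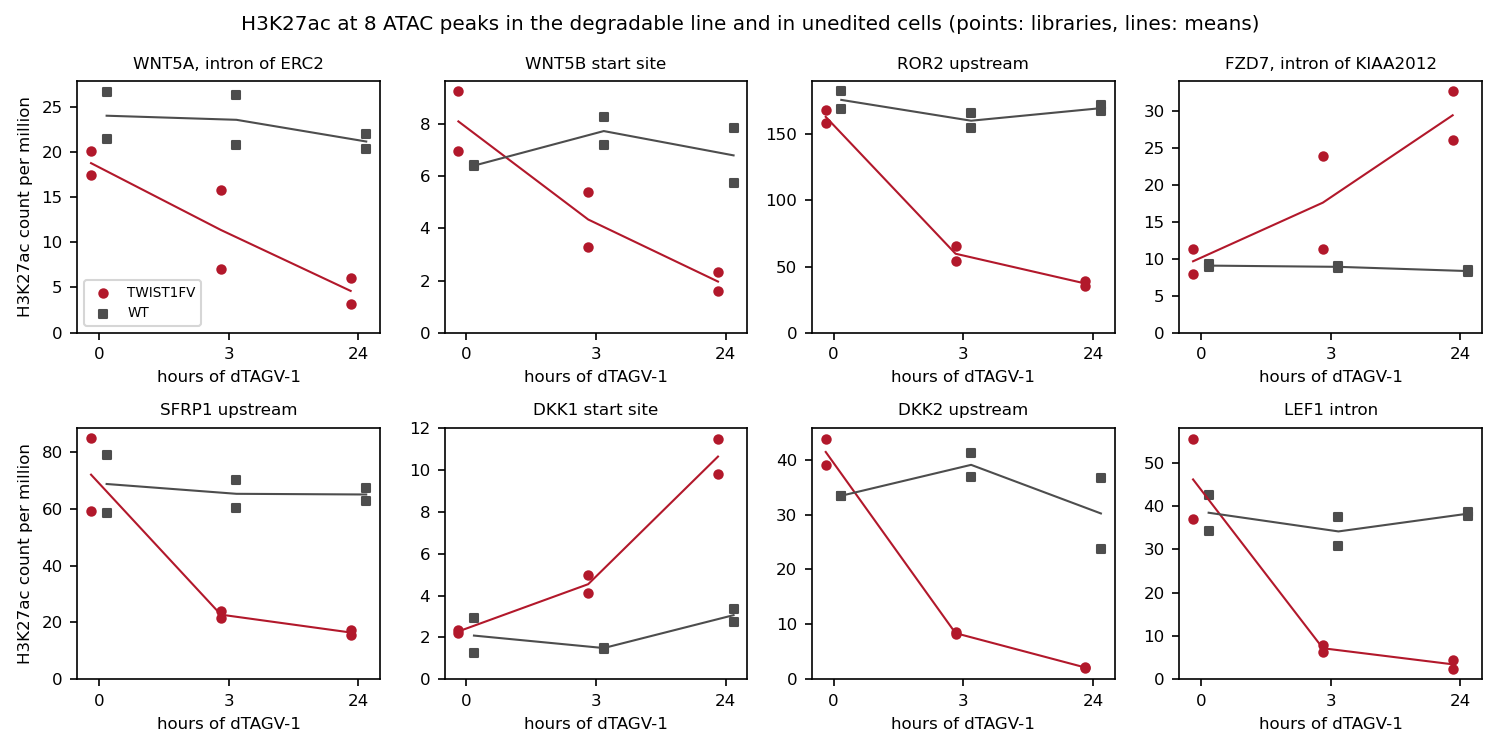
H3K27ac in CPM (vertical axes, each starting at 0) at 0, 3 and 24 h of dTAGV-1 for 8 member peaks, with TWIST1FV in red and WT in grey. Points are libraries and lines join the means of 2. The DKK2, LEF1, ROR2 and SFRP1 peaks are low by 3 h in TWIST1FV, whereas the DKK1 start site and the FZD7 peak are highest at 24 h.

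Among the secreted inhibitors, peaks at DKK2 and SFRP1 fell and the DKK1 start site rose. The DKK2 peak at chr4:107319766-107320656 lies 35960 bp from an alternative DKK2 start and 283453 bp from the start of the main transcript. It carried 43.7 and 39.1 CPM at 0 h, 8.52 and 8.23 at 3 h and 2.10 and 2.12 at 24 h in TWIST1FV, and 23.8 to 41.2 CPM in the 6 WT libraries. This peak had the largest fall of any called member at 24 h, -2.31 ± 0.25 at 3 h and -4.28 ± 0.29 at 24 h (SE; edgeR quasi-likelihood, adjusted p = 5.05e-05 and 1e-07). The difference from WT was -2.53 at 3 h and -4.14 at 24 h. All 4 calls held with any 1 library left out. At 24 h 5 of 20 tested DKK2 peaks fell and none rose, and the start site of the main transcript (chr4:107035027-107036730) held only 1.14 to 3.17 CPM in TWIST1FV.

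At SFRP1, 7 of 31 tested peaks fell at 24 h and none rose. The strongest TWIST1 site, 28525 bp upstream (chr8:41337998-41339074), carried 59.1 and 85.1 CPM at 0 h, 21.4 and 24.0 at 3 h and 15.4 and 17.5 at 24 h, with WT between 58.5 and 79.1. It fell by 1.68 at 3 h and by 2.13 at 24 h on the log2 scale (edgeR quasi-likelihood, adjusted p = 0.000176 and 4.12e-06). A peak downstream of the gene (chr8:41261081-41261978) went from 14.8 and 16.4 to 5.68 and 5.21 and then 2.33 and 1.59 CPM. Its change of -2.97 ± 0.37 at 24 h was called (SE; edgeR adjusted p = 2.8e-05), and the call at 3 h (-1.53) was lost without TWIST1FV 0 h replicate 2 (edgeR adjusted p = 0.0609). Summed over all 40 SFRP1 peaks, TWIST1FV had 220 and 252 CPM at 0 h, 114 and 119 at 3 h and 86.5 and 88.3 at 24 h, and WT 207 to 232.

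DKK1 was marked weakly. Its start site (chr10:52313106-52315173) lies in the antisense gene PRKG1-AS1. This peak overlaps the weaker of the locus's 2 TWIST1 sites (chr10:52313565-52314241, -log10 q 10.7 in WT replicate 1). It carried 2.37 and 2.19 CPM at 0 h, 4.97 and 4.12 at 3 h and 9.80 and 11.5 at 24 h in TWIST1FV. All 4 treated libraries lay above both untreated ones, and the 24 h change was 2.22 ± 0.38 (SE; edgeR quasi-likelihood, adjusted p = 0.000573). WT held 1.25 to 3.37 CPM across its 6 libraries, and the difference between the 2 lines' changes at 24 h, 1.64 ± 0.70 (SE), was not called (edgeR adjusted p = 0.208). It was the single call among the 6 DKK1 peaks tested.

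LEF1 and AXIN2, both tied to beta-catenin signalling, had more peaks that fell than rose at 24 h. So did all tested peaks, of which 11706 fell and 5276 rose. LEF1 had 7 of 40 tested peaks that fell and 1 that rose at 24 h. Its strongest TWIST1 site, in a LEF1 intron (chr4:108074490-108075402), carried 55.4 and 36.9 CPM at 0 h, 7.95 and 6.31 at 3 h and 2.33 and 4.50 at 24 h in TWIST1FV. WT libraries held 30.9 to 42.6. The change was -2.70 ± 0.31 at 3 h and -3.76 ± 0.33 at 24 h (SE; edgeR quasi-likelihood, adjusted p = 7.73e-05 and 1.02e-06). A peak at the start of LEF1-AS1 (chr4:108171940-108172928) went from 7.11 and 5.12 to 11.7 and 19.0 CPM (1.33 ± 0.34, SE; edgeR adjusted p = 0.0134), and without TWIST1FV 0 h or 24 h replicate 2 it no longer passed (edgeR adjusted p up to 0.182). WT held 3.75 to 6.5 CPM there, and the difference from WT was not called (edgeR adjusted p = 0.256). The LEF1 start site (chr4:108168526-108169026) went from 19.6 and 27.3 to 23.8 and 35.4 CPM and was not called.

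AXIN2 had 9 of 27 tested peaks that fell and 2 that rose at 24 h. An intronic peak with a TWIST1 site (chr17:65544935-65545435) carried 50.7 and 50.9 CPM at 0 h, 27.8 and 25.2 at 3 h and 11.9 and 11.5 at 24 h, with WT between 35.2 and 49.0. It fell by 2.11 at 24 h on the log2 scale (edgeR quasi-likelihood, adjusted p = 3.34e-06). The strongest TWIST1 site of the locus (chr17:65530106-65533066) has its summit near 65532220 and spans several ATAC peaks. One of them (chr17:65530032-65530532) rose from 13.2 and 8.04 to 26.0 and 18.2 CPM (1.07 ± 0.29, SE; edgeR adjusted p = 0.0195), a call lost without TWIST1FV 0 h replicate 2 or 24 h replicate 1 (edgeR adjusted p up to 0.261). WT held 10.1 to 14.4 CPM, and the difference from WT was not called (edgeR adjusted p = 0.0565). This peak lies at the edge of the TWIST1 site and does not reach its summit. A separate peak upstream of AXIN2, without a TWIST1 site (chr17:65594193-65594967), went from 2.67 and 5.61 to 14.5 and 13.5 CPM (1.74 ± 0.36, SE; edgeR adjusted p = 0.00276). That call was lost without TWIST1FV 0 h replicate 1 (edgeR adjusted p = 0.0563), and with 4.14 to 6.13 CPM in WT the difference between the lines was not called (edgeR adjusted p = 0.0891). The AXIN2 start site (chr17:65559677-65562330) held 164 and 157 CPM at 0 h and 139 and 147 at 24 h and was not called.

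The loss of ALX4 was examined at 0 h, ALX1FV ALX4- against ALX1FV. Of 361 tested members, 16 were lower and 2 higher without ALX4 (4.99% called, against 3.06% of all tested peaks), and the median log2 difference was -0.16 over members and 0.01 over all peaks. A TWIST1 site overlapped 14 of the 16 lower peaks (87.5%, against 90.5% of all lower peaks) and neither of the 2 higher ones (30.7% of all higher peaks). The call count was 7 without ALX1FV ALX4- replicate 1, 10 without ALX1FV replicate 2 and 9 in a fit of these 2 lines alone. The lines differ in clone as well as in ALX4, and the 2 cannot be told apart.

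At WNT5A 3 adjoining peaks were lower without ALX4. The internal start carried 24.8 and 44.6 CPM in ALX1FV and 7.41 and 11.8 in ALX1FV ALX4-, a difference of -1.87 ± 0.27 (SE; edgeR quasi-likelihood, adjusted p = 2.67e-06) that was called with any 1 of these libraries left out. WT at 0 h had 47.6 and 45.0 CPM. The next, intronic peak (chr3:55481911-55482821), named after its values were seen, carried 82.5 and 112 CPM against 24.1 and 51.1 (-1.38). The LEF1 intronic peak at chr4:108074490-108075402 had 27 and 31.6 CPM against 10.6 and 11.1 (-1.43 ± 0.26, SE; edgeR adjusted p = 0.000144), and the distal DKK2 peak 33.3 and 28.7 against 13.5 and 15.8 (-1.08). The DKK2 call was lost without ALX1FV ALX4- replicate 1 (edgeR adjusted p = 0.0739). Another LEF1 intronic peak (chr4:108160901-108161401) had the largest fitted difference, -1.91, but ALX1FV's clones held 6.33 and 25.8 CPM against 4.42 and 4.16. Without ALX1FV replicate 2 its difference was -0.56 and not called (edgeR adjusted p = 0.733).

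At SFRP1 the downstream peak at chr8:41261081-41261978 had 17.8 and 22.7 CPM in ALX1FV and 6.96 and 6.38 in ALX1FV ALX4- (-1.60 ± 0.27, SE; edgeR quasi-likelihood, adjusted p = 3.9e-05). The upstream SFRP1 peak with the strongest TWIST1 site was not called (-0.16 ± 0.15, SE), with 74.8 and 80.1 against 68.9 and 69.6 CPM. Both peaks that were higher without ALX4 also lay at SFRP1, side by side (chr8:41342520-41343020 and chr8:41343030-41343530). They carried 6.67 and 5.31 against 15.0 and 15.0 CPM, and 7.0 and 3.73 against 15.0 and 14.1. Their calls (edgeR adjusted p = 0.023 and 0.0246) were lost at the first when any 1 of the 4 libraries was left out, and at the second when any but ALX1FV replicate 1 was. Of the 16 members lower without ALX4, 15 (93.8%) also fell in TWIST1FV at 24 h, which is 28.3% of the 53 that fell there. Over all peaks the shares were 70.8% of 4009 and 24.2% of 11706.

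**Figure D4:**
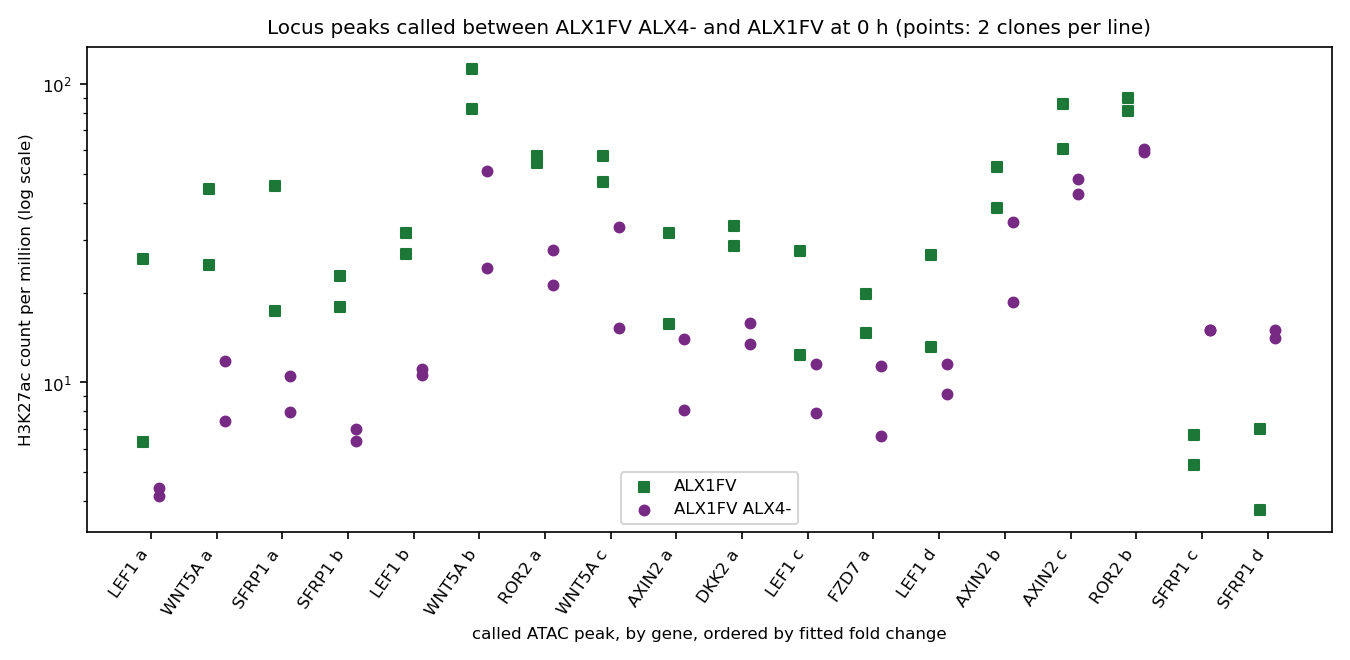
H3K27ac in CPM (log scale) at 0 h in ALX1FV (green squares) and ALX1FV ALX4- (purple circles) for the 18 called member peaks, ordered by fitted difference, with 1 point per clone. Letters number the peaks of a gene in that order. LEF1 a shows the spread between the ALX1FV clones, 6.33 and 25.8 CPM, and the pair of SFRP1 peaks at the right is higher without ALX4.

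At the start sites, levels were compared per length. In WT at 0 h WNT5A had the highest mean, 88.8 CPM per kb, then ROR2 78.1, FZD7 76.9 and FZD2 76.8, and the ranges of the last 3 overlapped. AXIN2 followed with 60.8 and LEF1 with 37.6. WNT5B (5.10) and SFRP1 (4.05) overlapped each other, as did DKK2 (1.83) and DKK1 (1.01). Across all 36 libraries AXIN2 ranged from 38.5 to 64.2 CPM per kb and ROR2 from 50.6 to 84.4. LEF1 ranged from 21.9 to 73.3, with ALX1FV clones far apart at 0 h (13.3 and 36.7 CPM).

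**Figure D5:**
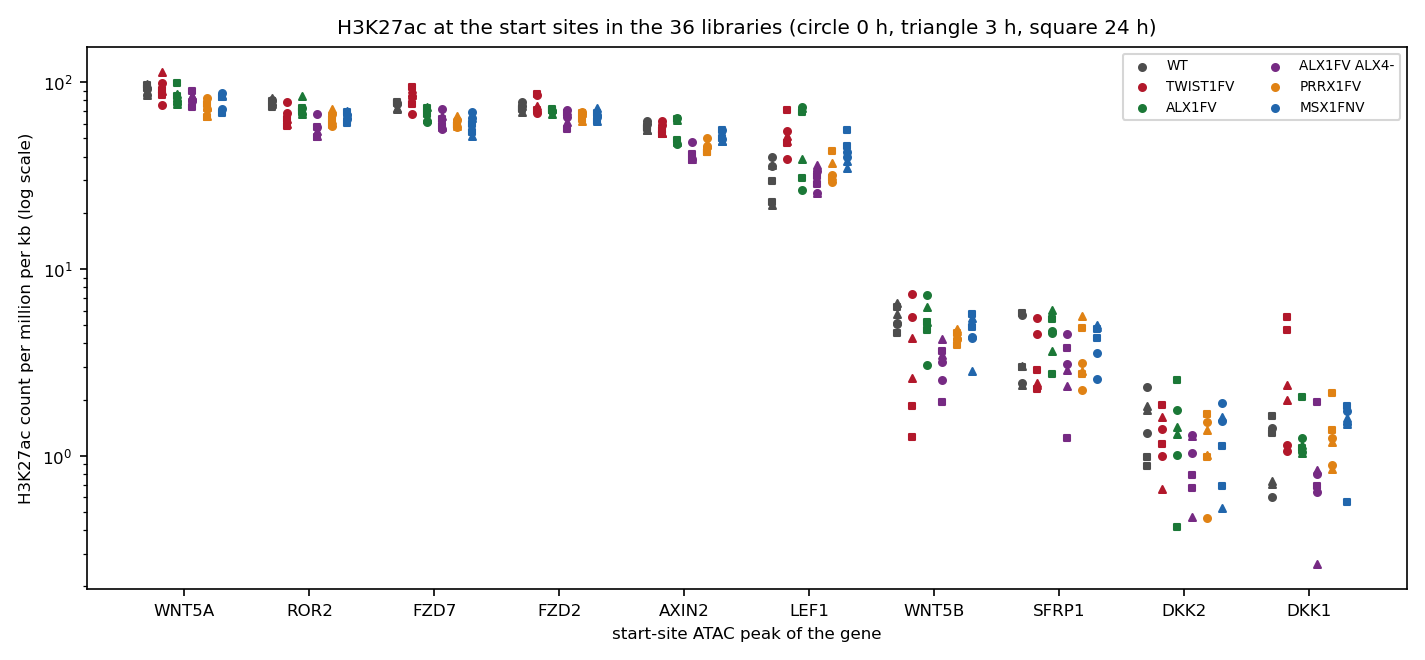
H3K27ac in CPM per kb (log scale) at the start-site peak of each gene, in order of the WT mean at 0 h, for 36 libraries. Colour gives the line and marker shape the time. The first 6 genes lie above 20 CPM per kb in all libraries, and DKK1 is highest in the TWIST1FV libraries at 24 h.

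For the rest of the pathway, 72 other WNT genes had 2051 ATAC peaks within the same distance. In TWIST1FV at 24 h, 60 rose and 103 fell of 1423 tested (11.5% called, median 0.05), against 13 and 53 of 319 at the 10 loci. Other ligands had 3 up and 14 down of 182, other receptors 7 and 11 of 249, other secreted inhibitors 17 and 17 of 210, and agonists such as the R-spondins and their LGR receptors 13 and 19 of 183. Cytoplasmic and nuclear components had 10 up and 27 down of 390, planar polarity genes 13 and 12 of 196, and the secretion genes PORCN and WLS 1 and 3 of 33. Without ALX4, 16 were higher and 44 lower of 1838 (3.26% called). The difference between the 10 loci and the other genes was not tested, since the loci were chosen with results of these data known.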

How the data were processed

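Binding was read from peak lists and H3K27ac from counts per ATAC peak in 36 libraries of 5137169 to 9173063 counts. The deposited counts were made by the authors, 1 table per line, and are mostly even, so both mates of a pair may be counted. The deposited peak lists give the authors' fold enrichment, -log10 p and q and an integer score per peak, called per library. The submitters' processing notes name Bowtie2 2.4.1, SAMtools 1.10, MACS2 2.2.7.1 and deepTools 3.5.0. Mouse spike-in reads were not used. Human coordinates are hg38 and mouse ones GRCm39.

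Counts were filtered (filterByExpr), TMM-scaled and tested over all ATAC peaks with edgeR 4.0.16 in R 4.3.3 (quasi-likelihood, Benjamini-Hochberg, threshold 0.05), first tested on simulated data, with DESeq2 1.42.0 as an alternative. CPM values are scaled by library total and TMM factor. Peak overlaps needed 1 bp, and shares were compared by exact permutation tests. Lines with 2 clones are paired over time by clone, per the labels, and same-number correlations of deviations were 0.14 to 0.15 in ALX1FV, 0.015 to 0.025 in ALX1FV ALX4-, 0.0083 to 0.013 in PRRX1FV and 0.036 to 0.047 in MSX1FNV. TWIST1FV (0.047 to 0.089) and WT (0.020 to 0.025) replicates share only a number. The main fits held no term for clone or replicate number.

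Peaks named per gene were the start site, the strongest TWIST1 site, V5-bound peaks and up to 2 peaks per direction in the other comparisons. Also named was the called peak with the largest change in each direction in TWIST1FV at 24 h, or else at 3 h. For this last choice a peak's mean level had to be at or above the median of all tested peaks, so weaker peaks with larger changes could be passed over. Members and lists were chosen with earlier results of these data known.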

Additional observations from a re-analysis of the deposited data

Results flagged for a closer look

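The change over time differed between TWIST1FV and WT at 14 member peaks at 3 h and at 46 at 24 h, by edgeR's interaction test. The values below are TWIST1FV's log2 change minus that of WT at the named peaks, and their causes were not tested.

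At 24 h the ligand loci gave -1.82 at the WNT5A site in ERC2, -1.37 at the internal WNT5A start and -2.12 at the WNT5B start site. Receptor loci gave -1.76 (upstream), 1.72 (KIAA2012 intron) and 1.49 (exon) at FZD7, -1.58 (downstream) and 1.24 (upstream) at FZD2, and -2.08 (upstream) and 1.26 (intron) at ROR2, whose upstream peak gave -1.32 at 3 h. The ROR2 value of 1.26 was no longer called in 7 of 8 fits that left out 1 library. At least 1 such fit also lost the call at the WNT5B start site, at both FZD2 peaks and at the FZD7 exon. DESeq2 did not call the internal WNT5A start (adjusted p = 0.058). A weak FZD7 peak in KIAA2012 gave a fitted 7.35 at 3 h, with 0 counts in both TWIST1FV libraries at 0 h, and was called in none of those 8 fits.

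SFRP1 gave -1.72 and -2.98 at 3 and 24 h downstream, and -1.59 and -2.06 upstream. DKK2 gave -2.53 and -4.14. LEF1 gave -2.52 and -3.75 at its strongest TWIST1 site, and -1.77 and -2.13 at the intronic peak nearer the start. The value of -1.77 was called in 1 of 8 fits without 1 library and not by DESeq2 (adjusted p = 0.071). AXIN2 gave -1.99 at 24 h.

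Lists outside the comparisons also held sites of the WNT loci. The TWIST1 list of RS4;11 lymphoblasts held 25 of the 127 (19.7%, against 20.3% of all 42318 sites). HEK293 lists of the other constructs held from 1 (V5-NEUROD1, 0.787% against 3.64% of all sites) to 46 (V5-TWIST1(L138F) with ALX4, 36.2% against 33.2%), and the pUC19 control 0.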

How the results depend on the processing

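Of 667 named-peak values under alternatives, 585 kept direction and side of the threshold, 76 lost the call and 6 reversed. Of 60 called values, 37 held in every fit without 1 library. The reversed values were uncalled start sites: WNT5A without a filter on low counts (-0.012), and, over fits without 1 library, WNT5A from -0.19 to 0.20, FZD2 from -0.13 to 0.19 and FZD7 from -0.0019 to 0.33. Among peaks nearest to their own gene, 13 were called in TWIST1FV at 3 h and 38 at 24 h, of 22 and 66 called members. Such peaks were 180 of the 372 members. Over all tested peaks, 5.29% and 13.8% were called at these times.

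With the replicate number as a block, calls were 54 and 89 in TWIST1FV at 3 and 24 h, 33 and 68 for the difference from WT, and 42 for the ALX4 comparison. Without the block these calls were 22 and 66, 14 and 46, and 18. The share of all tested peaks called with the block is not given here. The rise can therefore not be read as particular to the members. The block is fitted within each line. In lines with 2 clones it takes the spread between clones out of the error. In TWIST1FV and WT it pairs libraries that share only a number. Since clones differ between the lines, the block cannot serve to test the ALX4 comparison, where a fit of the 2 lines alone gave 9. Leaving out 1 library gave 13 to 32 and 47 to 56 in TWIST1FV, 0 to 1 in ALX1FV ALX4- at 3 h (1 without its 0 h replicate 2), 7 to 13 and 27 to 44 for the difference from WT, and 7 to 21 for the ALX4 comparison. The difference in locus peaks per list ranged from -22.5 to 1.5, with 0 without ALX1FV ALX4- replicate 2. The difference in sites kept ranged from -77.9 to -72.0 percentage points, and that in HEK293 sites from 8.66 to 15.0. The cause of these shifts was not tested. Weak start sites such as DKK1 and DKK2 rest on few counts.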
